A study of Mus musculus with 20 samples.

Results

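Clock and Bmal1 (mouse symbol Arntl) are partner transcription factors that bind E-box sequences and switch on the genes of the circadian clock. The response described here is the part of the transcriptional answer to doxycycline (dox) in mouse presomitic mesoderm that differed between 2 kinds of inducible clones. It is a difference of differences: the change with dox in clones that induce Clock and Bmal1, minus the change with dox in clones that induce Clock and a dominant-negative Bmal1 (ClockBmal1DN). The comparison used 8 of the 20 libraries of the series, and its members are the genes that passed in that difference, 104 of 20942 transcripts tested. The cells were presomitic mesoderm colonies (iPSM) grown from embryonic stem cells (ESC) of the line E14TG2a, and all of them, controls included, carry a luciferase gene driven by the Hes7 promoter. The Clock/Bmal1 clones 12 and 20 carry tetO-Clock/Bmal1, and the ClockBmal1DN clones 7 and 19 carry tetO-Clock/Bmal1DN. Each clone gave 1 library after 2 hours with 1000 ng/mL dox and 1 untreated library. A control line with the reporter and no inducible transgene gave 1 library with dox and 1 untreated, so its values have no replicate. Each inducible line is represented by 2 clones, and the labels do not say whether libraries of a clone came from more than 1 culture. The main fit has a column for each clone, so its p-values rest on how the change with dox varied between clones. That spread is estimated with information shared over transcripts.

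The presomitic mesoderm is the tissue at the tail end of the embryo from which somites are cut off in turn. Its segmentation clock is a rhythm of Notch, Wnt and FGF target genes, with the repressor Hes7 and the Notch-modifying enzyme Lfng at its centre, and it runs much faster than the circadian clock. In the circadian clock, Clock and Bmal1 drive Per, Cry, Nr1d1 and Bhlhe40 genes, whose products act back on Clock and Bmal1 or on their genes. Early embryonic cells do not yet have a running circadian clock, and the forced expression of both activators asks what they do to such cells.

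Read counts over whole gene bodies summed to between 38.4 and 47.8 M (mega) counts per library in the 8 libraries. Levels are given as CPM, counts scaled to a library total of 1 M after TMM normalisation, in the order clone 12, clone 20 for Clock/Bmal1 and clone 7, clone 19 for ClockBmal1DN. They are not scaled by gene length, so levels are compared between libraries and not between genes. All 9 markers of presomitic mesoderm had a median of at least 1 CPM over the libraries, among them T with a median of 547 CPM. Their summed level was 859 to 1020 CPM with dox and 903 to 1169 CPM untreated in the Clock/Bmal1 clones, against 1163 to 1368 CPM with dox and 1329 to 1409 CPM untreated in the ClockBmal1DN clones. All 5 markers of naive pluripotency also passed 1 CPM in the median, and their summed level was 105 to 152 CPM with dox and 106 to 164 CPM untreated in the Clock/Bmal1 clones, and 119 to 139 CPM with dox and 121 to 172 CPM untreated in the ClockBmal1DN clones. None of the 4 neural markers reached a median of 1 CPM, and Olig2 had a median of 0. Their summed level was 2.32 to 4.31 CPM in the dox-treated and 0.986 to 1.04 CPM in the untreated Clock/Bmal1 clones, against 0.737 to 0.853 CPM in the dox-treated and 0.625 to 0.923 CPM in the untreated ClockBmal1DN clones. The part of these gaps in presomitic mesoderm and neural markers in the results was not tested. Lateral mesoderm markers were low, with 0 of 6 at a median of 1 CPM and Hand1 and Osr1 at a median of 0, and 1 of 7 somite, 1 of 3 endoderm and 2 of 5 endothelial and blood markers passed it. In bulk RNA, fewer cells of a type and less RNA per cell cannot be told apart. The untreated control library stood apart, with reads over 69.4% of transcripts against 50.2% to 54.0% in the other iPSM libraries, and it enters no test here except 1 alternative setting.

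The induced genes were examined first. Reads of the transgenes and of the endogenous genes were counted together. Clock had 1749 and 2459 CPM in dox-treated and 98.8 and 103.7 CPM in untreated Clock/Bmal1 clones, and 1015 and 1054 CPM in dox-treated and 112 and 107 CPM in untreated ClockBmal1DN clones. Its rise was 17.7- and 23.7-fold in the Clock/Bmal1 clones and 9.05- and 9.85-fold in the ClockBmal1DN clones, and every dox-treated library lay far above every untreated one. Arntl had 3213.5 and 4682.5 CPM in dox-treated and 56.2 and 77.5 CPM in untreated Clock/Bmal1 clones, and 881 and 152.5 CPM in dox-treated and 41.9 and 65.7 CPM in untreated ClockBmal1DN clones. It rose 57.2- and 60.5-fold in the Clock/Bmal1 clones, and 21.0-fold in clone 7 and 2.32-fold in clone 19 of the ClockBmal1DN line. The control line held 20.1 CPM of Arntl with dox and 21.2 CPM untreated, below every clone with a transgene, untreated clones included. In edgeR's quasi-likelihood test, with Benjamini-Hochberg adjustment over all transcripts, the difference between the lines was 1.12 on the log2 scale (SE 0.22, adjusted p = 0.0773) for Clock and 3.08 on the log2 scale (SE 0.78, adjusted p = 0.236) for Arntl, and neither passed 0.05. The rise of Arntl within the ClockBmal1DN clones alone was 2.80 on the log2 scale (adjusted p = 1), with clones that lay far apart. Clock and Arntl together took 0.499% and 0.702% of all counts in the dox-treated Clock/Bmal1 clones, against 0.195% and 0.121% in the dox-treated ClockBmal1DN clones. The dox-treated ClockBmal1DN libraries held less Clock and Arntl RNA than the Clock/Bmal1 ones, although neither difference in the rise passed in edgeR's main setting. The Clock difference passed in DESeq2 (adjusted p = 0.000993) and in edgeR with all 10 libraries (adjusted p = 0.0294). In edgeR with no low-count filter both Clock (adjusted p = 1.77e-05) and Arntl (adjusted p = 1.09e-40) passed, and Arntl did not in DESeq2 (adjusted p = 1). With no filter the Arntl difference stayed at 3.06, and the ClockBmal1DN clones lay as far apart as before. So small an adjusted p does not reflect the spread between clones, and nothing is read from it. With a clone left out, the Clock difference was 0.91 to 1.33. The Arntl difference was 1.496 without ClockBmal1DN clone 19 and 4.66 without clone 7. For the results in presomitic mesoderm the kind of Bmal1 and the amount of it cannot be told apart.

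**Figure D1:**
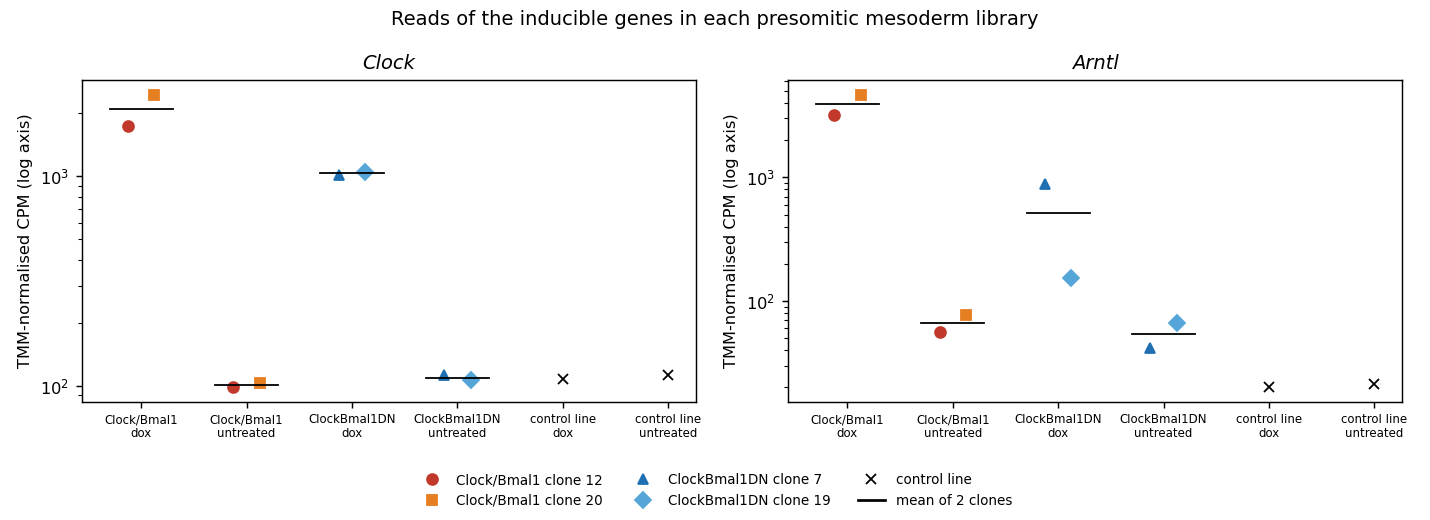
Levels of Clock and Arntl in each presomitic mesoderm library (TMM-normalised CPM, log axis), by line and treatment; points are single libraries and bars the mean of 2 clones. With dox, Arntl reached 3213.5 and 4682.5 CPM in the Clock/Bmal1 clones, against 881 and 152.5 CPM in the ClockBmal1DN clones.

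The difference between the lines ran in 1 direction. Of 20942 transcripts, 104 passed with a higher dox effect in the Clock/Bmal1 clones (0.497%) and 0 with a lower one (0%). At an unadjusted p under 0.05 there were 736 higher and 124 lower. DESeq2 called 162 higher and 1 lower, and limma-voom 91 higher and 0 lower. The 104 differences began at 1.07 on the log2 scale, with a median of 6.48-fold, and 40 of them were at least 10-fold. Ranked by smallest p and not by size, the genes were led by Ndrg1, a stress- and hypoxia-inducible gene, and by Ciart, Dbp and Dusp2. In all 104 the log2 dox ratios of both Clock/Bmal1 clones lay above those of both ClockBmal1DN clones, an order that 13.8% of all transcripts tested showed. Choosing genes by a positive difference favours this order, so nothing is read from it. All 104 also passed as higher in the Clock/Bmal1 clones by themselves, and 0 of them passed in the ClockBmal1DN clones, where 1 of 20942 transcripts passed. Both effects are terms of the difference that chose these genes. These counts, and the clone medians that follow, therefore add no support. Their median log2 ratio, dox over untreated, was 2.27 in clone 12 and 2.72 in clone 20, against -0.17 in clone 7, -0.095 in clone 19 and -0.088 in the control line. Clone 20 had the higher ratio of the Clock/Bmal1 clones in 86 of the 104. In the ClockBmal1DN clones 85 of the 104 changed by under 0.5 on the log2 scale in either direction, 17 had values under -0.5 and 2 over 0.5. Nothing is read from that lean, because choosing genes by the difference favours low values there.

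The number of calls depended on how the clones were treated in the fit. Without clone as a block the count was 52 higher, all of them among the 104. Without Clock/Bmal1 clone 12 it was 2045 higher and 794 lower, and without clone 20 it was 352 higher and 364 lower. Those fits hold 1 residual degree of freedom and take the spread of the remaining Clock/Bmal1 clone from the ClockBmal1DN clones. All 104 passed without clone 12 and without clone 20, 85 passed without ClockBmal1DN clone 7 and 86 without clone 19, and 79 passed in all 4 of these fits.

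**Figure D2:**
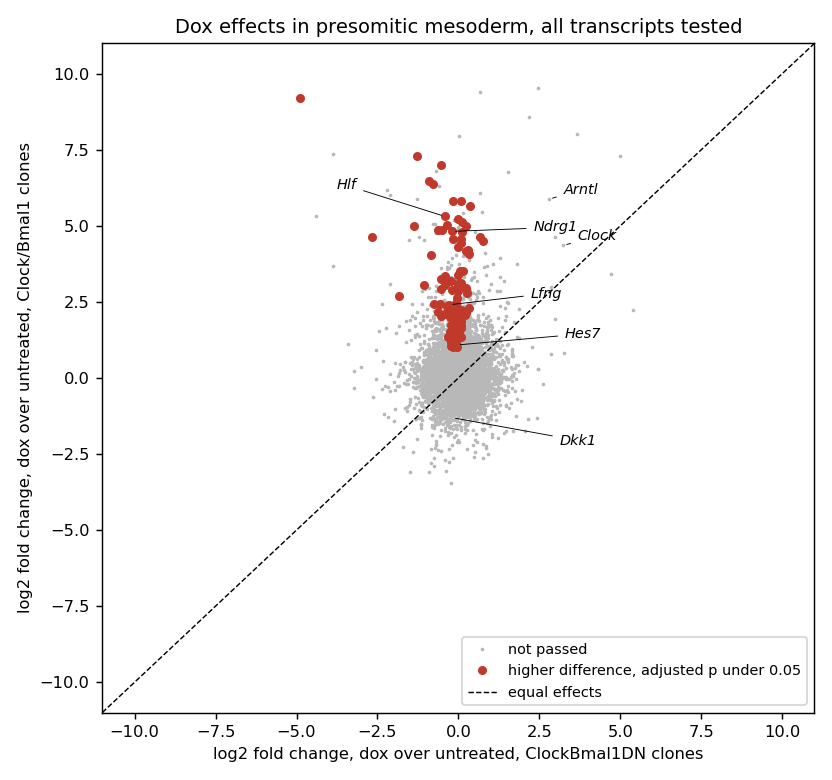
Dox effect (log2 fold change, dox over untreated) in the Clock/Bmal1 clones (vertical axis) against that in the ClockBmal1DN clones (horizontal axis) for the 20942 transcripts tested. The 104 transcripts that passed in the difference (red) lie above the dashed line of equal effects, 85 of them within 0.5 of 0 on the horizontal axis.

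Of 20 genes listed as circadian E-box targets, 11 gave a higher dox effect in the Clock/Bmal1 than in the ClockBmal1DN clones, with 0 lower. The list includes Nfil3, and the use of an E-box by Clock and Bmal1 was not tested for each member. Of all transcripts tested 0.497% were called higher. The median difference over the 20 was 1.45, against -0.017 over all transcripts tested. Ciart had 59.6 and 86.0 CPM in dox-treated and 3.22 and 2.77 CPM in untreated Clock/Bmal1 clones, and 3.20 and 2.51 CPM in dox-treated and 2.71 and 2.62 CPM in untreated ClockBmal1DN clones. Ciart encodes a repressor of Clock and Bmal1. Its dox-treated Clock/Bmal1 libraries stood apart from all 6 others, and the difference was 4.48 on the log2 scale (SE 0.31, adjusted p = 0.000331). For Nr1d1 the Clock/Bmal1 clones gave 32.0 and 42.5 CPM with dox and 2.15 and 1.29 CPM without, and the ClockBmal1DN clones 1.00 and 1.63 CPM with dox and 1.33 and 1.13 CPM without. Nr1d1 encodes REV-ERBα, the nuclear receptor that represses Arntl, and its difference was 4.35 on the log2 scale (SE 0.45, adjusted p = 0.00224). The control line held 1.86 CPM of Ciart with dox and 1.49 CPM untreated, close to the uninduced clones. Nr1d2, the close relative of Nr1d1, had a smaller difference of 1.29 (adjusted p = 0.0369), which did not pass without either ClockBmal1DN clone.

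Among the Period genes, which encode the repressors of the loop, Per1 stood at 40.0 and 52.0 CPM with dox against 7.66 and 5.02 CPM untreated in the Clock/Bmal1 clones, and at 8.53 and 6.53 CPM with dox against 7.83 and 7.28 CPM untreated in the ClockBmal1DN clones. The difference for Per1 was 2.88 on the log2 scale (SE 0.33, adjusted p = 0.00342). Per2 had 14.7 and 22.7 CPM in dox-treated and 3.40 and 1.70 CPM in untreated Clock/Bmal1 clones, and 8.94 and 5.87 CPM in dox-treated and 9.31 and 7.43 CPM in untreated ClockBmal1DN clones. Per2 was lower in untreated Clock/Bmal1 than in untreated ClockBmal1DN clones, so that its dox-treated groups lay closer together than its difference of 3.08 on the log2 scale (SE 0.45, adjusted p = 0.0136) says. The difference for Per3 was 0.58 (adjusted p = 0.987) and did not pass. Among the Cryptochromes, partners of Period in repression, Cry1 stood at 59.0 and 77.7 CPM with dox against 30.7 and 28.8 CPM untreated in the Clock/Bmal1 clones, and at 42.6 and 39.1 CPM with dox against 45.3 and 50.6 CPM untreated in the ClockBmal1DN clones. The difference for Cry1 was 1.42 on the log2 scale (SE 0.23, adjusted p = 0.0241), and for Cry2 it was 0.98 (adjusted p = 0.477), which did not pass.

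The E-box-binding repressors Bhlhe40 and Bhlhe41 also passed. Bhlhe40 stood at 69.9 and 67.8 CPM with dox against 12.8 and 6.38 CPM untreated in the Clock/Bmal1 clones, and at 7.22 and 8.33 CPM with dox against 13.2 and 9.57 CPM untreated in the ClockBmal1DN clones. Its difference was 3.45 on the log2 scale (SE 0.34, adjusted p = 0.00202). Bhlhe41 had 13.3 and 23.0 CPM in dox-treated and 0.527 and 0.382 CPM in untreated Clock/Bmal1 clones, and 0.283 and 0.379 CPM in dox-treated and 0.256 and 0.420 CPM in untreated ClockBmal1DN clones. That gene lay below 1 CPM in all libraries but the dox-treated Clock/Bmal1 ones, and its difference was 5.26 on the log2 scale (SE 0.56, adjusted p = 0.00224). The related transcription factors Dbp, Hlf and Tef, through which the clock reaches genes with D-boxes, differed by 3.47 (adjusted p = 0.00103), 5.73 (adjusted p = 0.00299) and 1.48 (adjusted p = 0.0281). For Dbp the Clock/Bmal1 clones gave 35.5 and 53.2 CPM with dox and 4.90 and 5.45 CPM without, and the ClockBmal1DN clones 1.81 and 3.60 CPM with dox and 2.76 and 4.20 CPM without. Hlf stood at 14.7 and 21.8 CPM with dox against 0.709 and 0.191 CPM untreated in the Clock/Bmal1 clones, and at 0.631 and 0.734 CPM with dox against 0.767 and 1.07 CPM untreated in the ClockBmal1DN clones. Tef had 132 and 151 CPM in dox-treated and 59.6 and 42.9 CPM in untreated Clock/Bmal1 clones, and 71.2 and 64.2 CPM in dox-treated and 66.4 and 68.9 CPM in untreated ClockBmal1DN clones. In all 3 the dox-treated Clock/Bmal1 libraries lay above every other library, and Tef did not pass without ClockBmal1DN clone 19 (adjusted p = 0.111), nor did Cry1 (adjusted p = 0.224). Without clone as a block Per2, Tef and Nr1d2 did not pass (adjusted p = 0.0544, 0.0523 and 0.181), and with transcripts under a mean of 1 CPM left out Per2, Cry1, Tef and Nr1d2 did not (adjusted p = 0.0527 to 0.0757).

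Nfil3, the repressor that competes with these factors for D-boxes, gave -0.55 (adjusted p = 1), and the deubiquitinase gene Usp2 gave 1.93 (adjusted p = 0.248). Of 18 other clock components, such as kinases and ubiquitin ligases that modify clock proteins, 0 passed in either direction. With 0.497% of all transcripts called, a list of this size can give that count, so nothing is read from it. The other activators of the same family, Arntl2 and Npas2, gave -0.40 (adjusted p = 1) and -0.36 (adjusted p = 1).

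**Figure D3:**
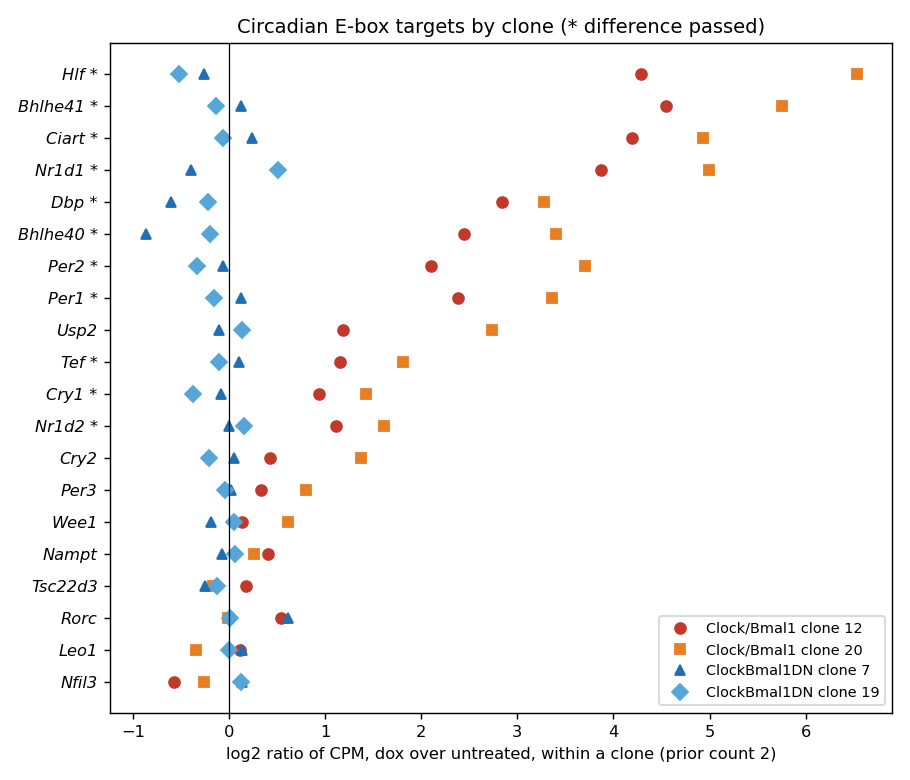
Log2 ratio of CPM, dox over untreated, within each clone for the 20 genes listed as circadian E-box targets, sorted by the difference between the lines. Asterisks mark the 11 that passed. For Ciart, Dbp and Hlf both Clock/Bmal1 clones lie above 2 and both ClockBmal1DN clones near or below 0.

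Of 29 segmentation clock and Notch genes, 4 passed as higher (Lfng, Hes1, Ripply2 and Hey1) and 0 as lower, and the median difference was 0.28. Over all transcripts tested 0.497% passed as higher, and the median was -0.017. Lfng stood at 47.3 and 97.6 CPM with dox against 7.86 and 20.8 CPM untreated in the Clock/Bmal1 clones, and at 14.0 and 22.7 CPM with dox against 20.7 and 22.7 CPM untreated in the ClockBmal1DN clones. Lfng encodes the glycosyltransferase that modifies Notch. Untreated clone 12 was the lowest of the 8 libraries, and dox-treated clone 7 lay below its untreated library. The difference was 2.69 on the log2 scale (SE 0.25, adjusted p = 0.00198), and without clone as a block it was 2.59 (adjusted p = 0.301). Hes1 had 94.9 and 101 CPM in dox-treated and 12.3 and 20.5 CPM in untreated Clock/Bmal1 clones, and 13.2 and 19.0 CPM in dox-treated and 14.8 and 17.9 CPM in untreated ClockBmal1DN clones. Hes1, a Notch target and bHLH repressor, thus had both dox-treated Clock/Bmal1 libraries far above the other 6, and its difference was 2.65 on the log2 scale (SE 0.25, adjusted p = 0.00198).

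For Hey1 the Clock/Bmal1 clones gave 6.26 and 15.0 CPM with dox and 2.19 and 5.35 CPM without, and the ClockBmal1DN clones 2.61 and 3.12 CPM with dox and 3.09 and 3.82 CPM without. For Hey1, another Notch target of the bHLH repressor family, untreated clone 20 and dox-treated clone 12 lay close together, so the rise was seen within clones. Its difference was 1.77 on the log2 scale (SE 0.30, adjusted p = 0.0328), and it did not pass without clone 7 (adjusted p = 0.156) or without clone 19 (adjusted p = 0.201). Ripply2 stood at 1.30 and 3.87 CPM with dox against 0.0203 and 0.143 CPM untreated in the Clock/Bmal1 clones, and at 0.130 and 0.142 CPM with dox against 0.179 and 0.168 CPM untreated in the ClockBmal1DN clones. Ripply2, which antagonises Tbx6 where a somite boundary is set, was near 0 everywhere but in the dox-treated Clock/Bmal1 libraries, and its difference was 5.36 on the log2 scale (SE 0.80, adjusted p = 0.0158). Without clone as a block neither Ripply2 (adjusted p = 0.181) nor Hey1 (adjusted p = 1) passed.

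Hes7, the repressor at the core of the mouse segmentation clock, did not pass. Hes7 had 22.8 and 32.9 CPM in dox-treated and 7.66 and 21.5 CPM in untreated Clock/Bmal1 clones, and 14.7 and 20.4 CPM in dox-treated and 16.8 and 19.4 CPM in untreated ClockBmal1DN clones. Dox-treated clone 12 and untreated clone 20 differed little, and clone 12 had by far the lowest untreated value. The difference was 1.14 on the log2 scale (SE 0.31, adjusted p = 0.309). With no low-count filter it was 1.13 (adjusted p = 0.0042), in a setting that lowered adjusted p-values widely, so it is not read as stronger evidence. Its dox effect was 1.08 in the Clock/Bmal1 clones by themselves (adjusted p = 0.0398) and -0.06 in the ClockBmal1DN clones. In the control line Hes7 stood at 31.1 CPM with dox and 25.5 CPM untreated, Lfng at 38.1 and 31.9 CPM and Hes1 at 22.8 and 17.9 CPM, with 1 library each. Untreated Hes7 and Lfng were thus higher there than in any untreated clone. Hes7 and Per1 are neighbours on chromosome 11, at chr11:69120404-69124055, plus strand and chr11:69098948-69109960, plus strand (mm10). Of 12 genes tested in that neighbourhood, Per1 was the 1 that passed, beside 0.497% of all transcripts tested. Aloxe3, a lipoxygenase gene of the same neighbourhood, gave 2.55 (adjusted p = 0.12) in edgeR and passed in DESeq2 (adjusted p = 0.0175).

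**Figure D4:**
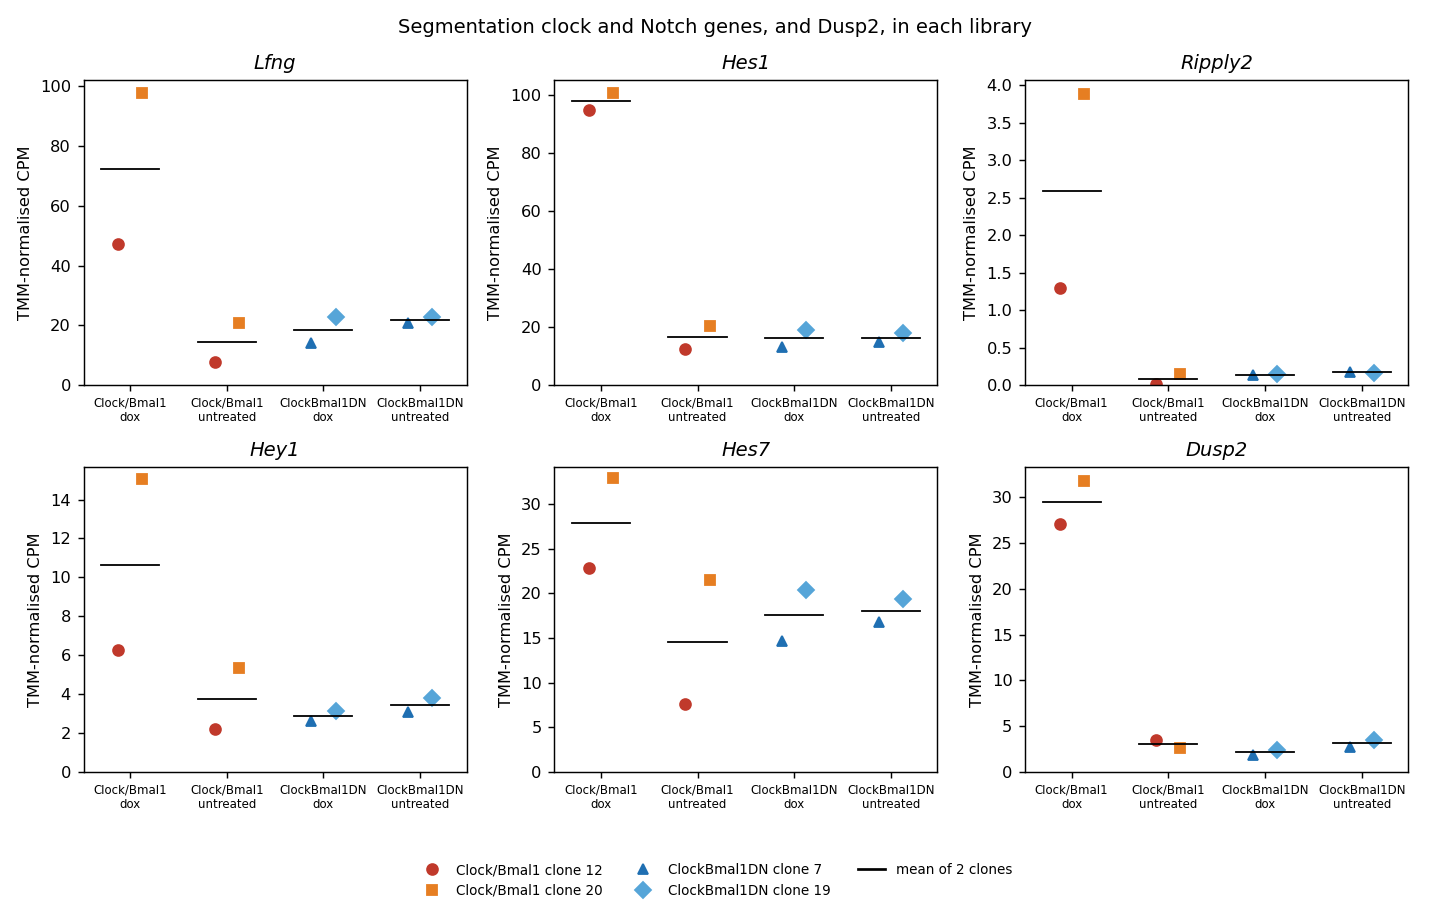
TMM-normalised CPM of Lfng, Hes1, Ripply2, Hey1, Hes7 and Dusp2 in each library, by line and treatment; points are single libraries and bars the mean of 2 clones. For Hes1 and Dusp2 both dox-treated Clock/Bmal1 clones lie far above all other libraries, while for Hes7 and Hey1 dox-treated clone 12 lies near untreated clone 20.

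Of the other pathways of the segmentation clock, FGF and MAPK feedback genes gave 1 call of 30, beside 0.497% of all transcripts tested. The call was Dusp2, a phosphatase that switches off MAP kinases. For Dusp2 the Clock/Bmal1 clones gave 27.1 and 31.8 CPM with dox and 3.49 and 2.63 CPM without, and the ClockBmal1DN clones 1.87 and 2.44 CPM with dox and 2.76 and 3.50 CPM without. Both dox-treated Clock/Bmal1 libraries lay above all others, and the difference was 3.81 on the log2 scale (SE 0.31, adjusted p = 0.00103). The median over these 30 genes was -0.076. Spry1, a feedback inhibitor of FGF signalling, came next with 1.56 (adjusted p = 0.0522) in edgeR, and passed in DESeq2 (adjusted p = 0.00179), with all 10 libraries (adjusted p = 0.0217) and with counts rounded down (adjusted p = 0.0416). Wnt genes gave 0 calls of 35, a count that a list of this size can give at the share over all transcripts, so nothing is read from it. The smallest p-values there were those of Dkk1, a secreted Wnt inhibitor, and Sp5, a Wnt target. Dkk1 stood at 6.33 and 7.83 CPM with dox against 13.4 and 22.3 CPM untreated in the Clock/Bmal1 clones, and at 23.6 and 31.7 CPM with dox against 28.3 and 35.8 CPM untreated in the ClockBmal1DN clones. The difference for Dkk1 was -1.08 on the log2 scale (SE 0.24, adjusted p = 0.129) in edgeR, and DESeq2 gave the same direction with an adjusted p of 0.0298. Sp5 gave -0.72 (adjusted p = 0.354). In the Clock/Bmal1 clones by themselves both passed as lower, at -1.30 and -1.05.

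Of 20 genes of posterior presomitic mesoderm, Lfng was the 1 that passed, and the median difference was -0.31. Over all transcripts tested 0.497% were called, with a median of -0.017. The retinoic acid-degrading enzyme gene Cyp26a1 gave -1.06 (adjusted p = 0.369), and the transcription factor genes Tbx6 and Msgn1 gave -0.46 (adjusted p = 1) and -0.41 (adjusted p = 1). Of 15 somite genes tested, Ripply2 was the 1 that passed. No gene passed among 16 of naive pluripotency, 9 neural, 8 of lateral, intermediate and cardiac mesoderm, 6 of endoderm and 5 of endothelium and blood. At the share over all transcripts, lists this small would hold hardly any calls, so nothing is read from these counts.

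Immediate early genes, which answer signals within minutes, gave 7 calls of 31, all higher (Junb, Gadd45b, Nr4a3, Klf10, Atf3, Fosl1 and Maff), with a median of 0.24. All transcripts tested gave 0.497% and a median of -0.017. Junb had 52.6 and 61.7 CPM in dox-treated and 13.1 and 12.8 CPM in untreated Clock/Bmal1 clones, and 9.59 and 9.82 CPM in dox-treated and 11.7 and 11.5 CPM in untreated ClockBmal1DN clones. Junb is a subunit of the AP-1 factor, and its difference was 2.40 on the log2 scale (SE 0.22, adjusted p = 0.00198). For Gadd45b the Clock/Bmal1 clones gave 20.8 and 35.7 CPM with dox and 3.61 and 7.17 CPM without, and the ClockBmal1DN clones 3.00 and 4.31 CPM with dox and 5.47 and 5.16 CPM without. The stress-inducible Gadd45b differed by 2.98 on the log2 scale (SE 0.30, adjusted p = 0.00202), and its value in the ClockBmal1DN clones alone was -0.56. Nr4a3 stood at 9.12 and 27.4 CPM with dox against 0.223 and 0.382 CPM untreated in the Clock/Bmal1 clones, and at 0.348 and 0.284 CPM with dox against 0.153 and 0.461 CPM untreated in the ClockBmal1DN clones. That gene encodes an orphan nuclear receptor, and its difference was 5.73 on the log2 scale (SE 0.63, adjusted p = 0.00272). Without clone as a block Gadd45b (adjusted p = 0.0685), Nr4a3 (adjusted p = 0.0527) and Klf10 (adjusted p = 0.0881) did not pass. Klf10 gave 1.97 (adjusted p = 0.00384), Atf3 1.78 (adjusted p = 0.00621), Fosl1 3.78 (adjusted p = 0.00874) and Maff 1.89 (adjusted p = 0.0249). Ccn1, Ccn2 and Klf6 of the same list passed as lower in the Clock/Bmal1 clones by themselves, but gave -0.57 (adjusted p = 1), -0.84 (adjusted p = 0.825) and -0.50 (adjusted p = 1) in the difference.

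Ndrg1, which had the smallest p of all transcripts, was the 1 call among 19 transcripts of hypoxia and glycolysis, beside 0.497% of all transcripts tested. Ndrg1 had 120.1 and 168 CPM in dox-treated and 5.94 and 4.18 CPM in untreated Clock/Bmal1 clones, and 5.74 and 4.95 CPM in dox-treated and 6.60 and 5.62 CPM in untreated ClockBmal1DN clones. Its difference was 5.01 on the log2 scale (SE 0.32, adjusted p = 0.000279), and its dox effect 4.82 in the Clock/Bmal1 clones and -0.19 in the ClockBmal1DN clones. Hk2, the hexokinase that starts glycolysis in many growing cells, gave 1.12 (adjusted p = 0.0704) in edgeR and passed in DESeq2 (adjusted p = 0.00198) and with all 10 libraries (adjusted p = 0.0339), and the median of the list was -0.07. Among 19 transcripts of the integrated stress response 2 were called, beside 0.497% of all transcripts tested, and the median of that list was 0.058. They were Stc2, a secreted glycoprotein, at 1.61 (adjusted p = 0.0114) and Vldlr, a receptor of lipoproteins and of reelin, at 1.23 (adjusted p = 0.0215). Vldlr did not pass without clone 7 (adjusted p = 0.261) or clone 19 (adjusted p = 0.339), and Stc2 did not pass without clone 19 (adjusted p = 0.118). Without clone as a block the adjusted p was 0.341 for Stc2 and 0.666 for Vldlr. Atf4, the transcription factor that carries this stress response, gave -0.25 (adjusted p = 1). In edgeR no gene passed among 25 of the cell cycle, 14 targets of p53 and 8 mitochondrially encoded genes. Lists of this size can give that count at the share over all transcripts, so nothing is read from it. The cyclin gene Ccne2 (0.98, adjusted p = 0.0294) and the cyclin-dependent kinase inhibitor gene Cdkn1c (0.94, adjusted p = 0.0399) passed in DESeq2.

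Among called genes that averaged 1 CPM or more in some group and have a full symbol, the 10 with the largest positive differences were those of Nkx1-1, Prok2, Hrh3, Gfi1, Onecut1, Nmu, Hlf, Nr4a3, Epha8 and Ripply2. All 10 lay under 1 CPM in both untreated Clock/Bmal1 libraries. Nkx1-1, a homeobox gene, had 152 reads summed over the dox-treated Clock/Bmal1 libraries and 0 over the untreated ones, and 0 over the dox-treated and 7 over the untreated ClockBmal1DN libraries. Taking 3 counts over the group as the floor, its level was at least 52.2-fold higher with dox in the Clock/Bmal1 clones. Its difference passed in edgeR (adjusted p = 0.0232) and not in DESeq2. Prok2, a secreted prokineticin that is an output of the brain clock, had 393 and 2 reads in dox-treated and untreated Clock/Bmal1 clones, and 3 and 8 reads in dox-treated and untreated ClockBmal1DN clones. The ratio within the Clock/Bmal1 clones was 202 (exact 95% counting interval 55.7 to 1677, counting error only), and its difference had an adjusted p of 0.0218. Gfi1, a zinc-finger repressor, had 147 and 6 reads in dox-treated and untreated Clock/Bmal1 clones, and 2 and 14 reads in dox-treated and untreated ClockBmal1DN clones. Without clone as a block Prok2 (adjusted p = 0.104) and Gfi1 (adjusted p = 0.157) did not pass.

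Hrh3 had 4.04 and 8.52 CPM in dox-treated and 0.0608 and 0.0239 CPM in untreated Clock/Bmal1 clones, and 0.196 and 0.0947 CPM in dox-treated and 0.256 and 0.168 CPM in untreated ClockBmal1DN clones. Hrh3 encodes a histamine receptor, and its difference was 7.54 on the log2 scale (SE 0.81, adjusted p = 0.00229). For Onecut1 the Clock/Bmal1 clones gave 3.37 and 6.71 CPM with dox and 0.0608 and 0.0478 CPM without, and the ClockBmal1DN clones 0.109 and 0.142 CPM with dox and 0.205 and 0.231 CPM without. The reads of Onecut1, a transcription factor gene, overlap those of Gm20649 on the same strand, so the 2 cannot be separated, and its difference was 7.17 on the log2 scale (SE 0.74, adjusted p = 0.00224). Nmu stood at 10.01 and 13.9 CPM with dox against 0.122 and 0.311 CPM untreated in the Clock/Bmal1 clones, and at 0.087 and 0.0947 CPM with dox against 0.0767 and 0.126 CPM untreated in the ClockBmal1DN clones. The neuropeptide gene Nmu gave 5.98 on the log2 scale (SE 0.79, adjusted p = 0.00696). Epha8 had 11.3 and 13.6 CPM in dox-treated and 0.567 and 0.287 CPM in untreated Clock/Bmal1 clones, and 0.239 and 0.118 CPM in dox-treated and 0.256 and 0.294 CPM in untreated ClockBmal1DN clones. Epha8, an ephrin receptor gene, gave 5.48 on the log2 scale (SE 0.65, adjusted p = 0.00401).

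Across the 104 genes, 31 had a mean under 1 CPM in untreated Clock/Bmal1 clones and 32 a mean of at least 10 CPM. Of the calls, 8 overlap another tested transcript on the same strand, such as Rnaset2b and Gm49721, whose reads cannot be told apart, and 7 have provisional symbols. Among the genes above 10 CPM, Foxo3, a forkhead factor gene, averaged 421 CPM in dox-treated and 106 CPM in untreated Clock/Bmal1 clones, with a difference of 2.08 (adjusted p = 0.0136).

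The upstream sequences of the called genes were read next, because Clock and Bmal1 bind the E-box CACGTG. In the 250 bases before the start site (RefSeq, GRCm38.p6), CACGTG was found in 25 of the 69 called transcripts that could be matched (36.2%), against 894 of the 10468 tested transcripts that could be matched (8.54%). The called circadian genes held it in 3 of 6 and the other called genes in 22 of 63 (34.9%). CACGTG reads the same on both strands, so each position was counted once. The variants CACGTT and CATGTG, searched on both strands, were found in 5.8% and 7.25% of called genes, against 4.32% and 7.56% of all. A match is a run of letters and does not show binding, and a missing match says only that these letters are not in the window. Sequences are given for 5 genes described above, the 5 with the smallest p among called list genes that held CACGTG, so that the E-box can be seen in its context. They are written in lower case with CACGTG in capitals, 5′ to 3′ on the gene's own strand. Ciart lies at chr3:95882229-95882478 (minus strand), Dusp2 at chr2:127335909-127336158 (plus strand), Lfng at chr5:140607091-140607340 (plus strand), Gadd45b at chr10:80929841-80930090 (plus strand) and Per1 at chr11:69098699-69098948 (plus strand).
Ciart: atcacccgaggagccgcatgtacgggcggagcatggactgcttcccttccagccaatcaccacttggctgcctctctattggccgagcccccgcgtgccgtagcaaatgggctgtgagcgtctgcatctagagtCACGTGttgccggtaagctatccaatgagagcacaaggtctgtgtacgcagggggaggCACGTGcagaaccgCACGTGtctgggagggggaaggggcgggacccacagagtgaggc
Dusp2: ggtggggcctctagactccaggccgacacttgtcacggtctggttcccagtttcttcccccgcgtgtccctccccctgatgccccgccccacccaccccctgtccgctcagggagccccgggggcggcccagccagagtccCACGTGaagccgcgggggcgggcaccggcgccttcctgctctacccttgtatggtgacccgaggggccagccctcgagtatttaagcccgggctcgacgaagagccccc
Lfng: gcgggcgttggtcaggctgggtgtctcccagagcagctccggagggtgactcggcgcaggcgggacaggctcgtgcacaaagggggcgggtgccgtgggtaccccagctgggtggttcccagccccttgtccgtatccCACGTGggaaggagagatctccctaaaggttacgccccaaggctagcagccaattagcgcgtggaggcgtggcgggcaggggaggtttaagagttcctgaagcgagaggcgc
Gadd45b: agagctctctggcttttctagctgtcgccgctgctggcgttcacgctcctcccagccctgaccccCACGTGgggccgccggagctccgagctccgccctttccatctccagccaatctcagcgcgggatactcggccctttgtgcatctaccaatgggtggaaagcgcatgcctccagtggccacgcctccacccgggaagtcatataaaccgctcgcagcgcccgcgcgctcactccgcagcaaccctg
Per1: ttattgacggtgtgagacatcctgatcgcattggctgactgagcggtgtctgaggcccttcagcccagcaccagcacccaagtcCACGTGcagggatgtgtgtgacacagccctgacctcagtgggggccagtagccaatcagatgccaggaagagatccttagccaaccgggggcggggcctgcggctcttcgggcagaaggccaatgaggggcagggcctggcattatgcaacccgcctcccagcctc
Ciart, which had the second smallest p, held 3 copies, at -116, -58 and -44 from the start site. Dusp2 held it at -109, Lfng at -112, Gadd45b at -185 and Per1 at -166.

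The 2 dox effects behind the difference were also examined by themselves. In the Clock/Bmal1 clones 315 transcripts passed as higher (1.5%) and 13 as lower (0.0621%). Of the 315, 104 (33.0%) also passed in the difference. The remaining 211 were not shown to differ between the lines, nor shown not to. The median difference of the 315 was 2.02, and choosing them by the Clock/Bmal1 effect favours a positive one. In the ClockBmal1DN clones 1 transcript passed as higher, Clock itself (0.00478%), and 0 as lower (0%), with 165 at an unadjusted p under 0.05. The 13 lower genes in the Clock/Bmal1 clones were Dkk1, Pcdh18, Sp5, Cyp26a1, Klhl6, Zfp503, Foxb1, Ccn2, Klf6, Dusp5, Ccn1, Amotl2 and Msgn1. Their median difference was -0.793, a direction which that choice favours likewise, and 0 passed in the difference.

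The same difference was then set beside that in undifferentiated ESC of the line KY1.1, where clones 1 and 7 with tetO-Clock/Bmal1 and clones 5 and 6 with tetO-Clock/Bmal1DN were compared, each untreated and after 6 hours with 500 ng/mL dox. Cell type, cell line, dose and time differ together and cannot be told apart. The induced genes also stood differently there, in CPM scaled over 16 libraries. In ESC, Arntl had 2421 and 4524 CPM in dox-treated and 49.2 and 51.4 CPM in untreated Clock/Bmal1 clones 1 and 7, and 1737 and 4463 CPM in dox-treated and 58.6 and 47.1 CPM in untreated ClockBmal1DN clones 5 and 6. Clock had 769 and 628 CPM in dox-treated and 43.0 and 63.1 CPM in untreated Clock/Bmal1 clones, and 349 and 1645 CPM in dox-treated and 38.3 and 42.1 CPM in untreated ClockBmal1DN clones. The dox-treated lines overlapped in both genes, with a difference of 0.31 (SE 0.82, adjusted p = 0.952) for Arntl and -0.50 (SE 0.55, adjusted p = 0.861) for Clock, so the lower Arntl level of the ClockBmal1DN clones in presomitic mesoderm was not seen in ESC. These errors are wide and do not show equal amounts. In a fit of 16 libraries and 22814 transcripts, the difference in presomitic mesoderm minus that in ESC passed for 0 transcripts as higher (0%) and 0 as lower (0%), with 859 at an unadjusted p under 0.05. Of the 104 genes, 99 (95.2%) had a positive difference in ESC, against 50.4% of all tested, and the median was 2.68 in presomitic mesoderm and 2.06 in ESC. In ESC 74 transcripts passed as higher (0.324%) and 1 as lower (0.00438%). Of the 104 genes 41 passed in ESC, which is 39.4% of the 104 and 54.7% of the 75 ESC calls. The 104 were called in the fit of 8 libraries, and the ESC calls come from the fit of 16. In the fit of 16 not all of the 104 passed in presomitic mesoderm. Per2, for example, had an edgeR adjusted p of 0.127 there and 0.0429 in ESC. The shares therefore do not compare the breadth of the 2 responses.

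Some genes had close values in both cell types. The difference for Per1 was 2.87 in presomitic mesoderm and 2.79 in ESC, for Lfng 2.67 in presomitic mesoderm and 2.49 in ESC and for Ciart 4.47 in presomitic mesoderm and 3.86 in ESC. Others lay apart without passing the test of that contrast. The difference for Trpm1, a cation channel gene, was 1.84 in presomitic mesoderm and 5.33 in ESC (adjusted p of the contrast = 0.566), and for Hey1 it was 1.75 in presomitic mesoderm and -0.54 in ESC (adjusted p = 1). The 5 of the 104 genes without a positive difference in ESC were Gm14169, Shisa3, Syde2, Hey1 and Ripply2. Ripply2 had at most 0.151 CPM in any ESC library, so its ESC value rests on very few reads. In ESC ClockBmal1DN clone 6, Rgs16 and F3 of the 104 fell with dox, from 64.9 to 12.0 CPM and from 52.0 to 16.6 CPM. In clone 5 they did not fall (18.1 to 18.9 CPM and 23.4 to 26.5 CPM). Their positive ESC differences thus rest in part on 1 clone.

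**Figure D5:**
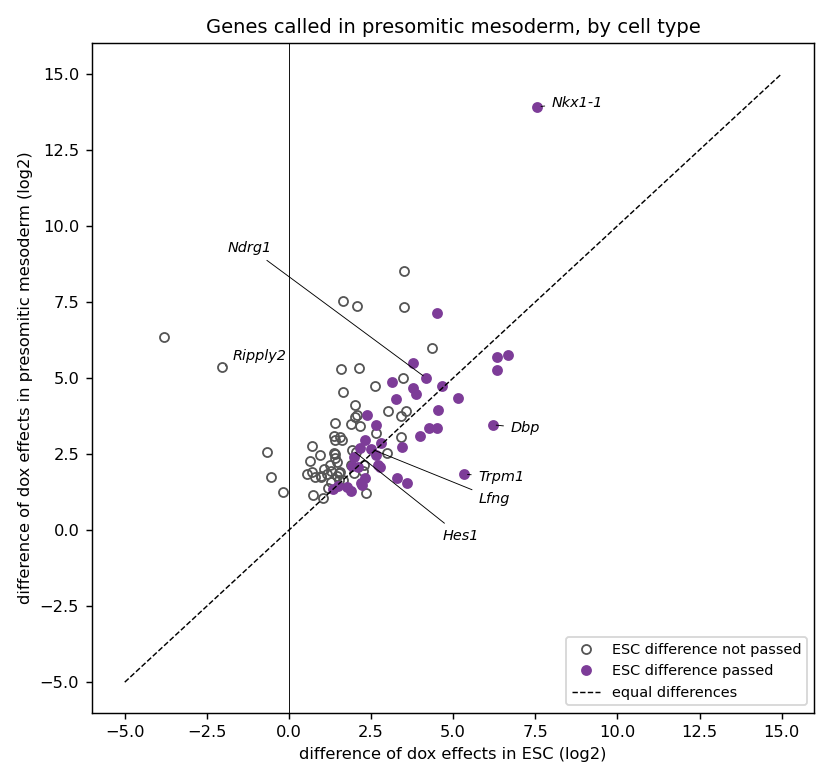
Difference between the lines (log2) in presomitic mesoderm, vertical axis, against the same in ESC, horizontal axis, for the 104 genes called in presomitic mesoderm, from the fit of 16 libraries. Filled points mark the 41 that passed in ESC in that fit, and 99 points lie right of 0. The 104 themselves were called in the fit of 8 libraries. The fitted value of Nkx1-1 rests on groups with 0 reads and is no measured fold.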

How the data were processed

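RNA-seq libraries of 10 iPSM and 10 ESC samples were deposited as 1 table per cell type, each with 55421 transcripts. Per the labels, stranded total RNA libraries were sequenced as paired ends. The submitters' processing notes name bcl2fastq, STAR 2.7.2a, HOMER and mm10, and the role of each tool is not given in the sources used here. The authors deposited estimated counts of reads over gene bodies, not normalised per the file headers, of which 18.8% ended in 0.5. The authors also deposited RPKM values of the same counts, which were not used. Counts were rounded to whole numbers.

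The 8 iPSM libraries of the inducible clones were fitted in edgeR 4.0.16 (R 4.3.3) with TMM factors, filterByExpr, glmQLFit and glmQLFTest, with a column for each clone and a dox term for each line, which leaves 2 residual degrees of freedom. Dox-treated and untreated libraries carry the same clone number and so come from the same line, and their deviations from the group means correlated at 0.245 (Clock/Bmal1) and 0.143 (ClockBmal1DN). Tests were two-sided, with Benjamini-Hochberg adjustment over all 20942 transcripts and a threshold of 0.05. The standard error (SE) is the log2 value over the square root of F. Log2 ratios of single clones use a prior count of 2. Totals of 38.4 to 47.8 M counts limit precision less than the spread between 2 clones, with a biological coefficient of variation of 15.3%. The fit was also run on simulated counts in which clones of a line shared the same dox response. That run does not cover a spread of the response between clones. CPM of the control line come from TMM factors over all 10 iPSM libraries, and the comparison with ESC is a fit of 16 libraries with 4 residual degrees of freedom. Promoter sequences were matched by symbol, with start sites within 100 bases. DESeq2 1.42.0 and limma 3.58.1 were alternatives, as were other normalisation, filters, rounding, libraries and left-out clones.

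The members, the 20 gene lists and the rule for named genes were chosen with earlier results of these data known. That rule always takes Clock, Arntl, the main circadian loop genes, Hes7 and Lfng. It adds the 10 largest differences in each direction among called transcripts whose clones do not overlap between lines, that reach an average of 1 CPM in some group and whose symbol is not provisional, and up to 4 called members of each list by smallest p, or the 2 smallest p where fewer than 2 passed. Other genes in the text were chosen after their values were seen.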

Additional observations from a re-analysis of the deposited data

How the results depend on the processing

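All 104 called genes kept a positive difference under every alternative that measured them, and 43 passed under all of them. The fit of 16 libraries with ESC is not among these alternatives, and calls were lost in it. In presomitic mesoderm Vldlr (edgeR adjusted p = 0.905), Fzd4 (0.768) and Ripply2 (0.211) did not pass there. Nor did Rgs16 (0.255) and F3 (0.128), which belong to the 43. Ciart (0.00275) and Lfng (0.00568) passed there. Against 104 higher and 0 lower, the fit with no replicate block gave 52 higher, DESeq2 gave 162 higher and 1 lower (Dkk1), no low-count filter gave 323 higher and 4 lower, and a mean of at least 1 CPM gave 65 higher. Clock, Arntl, Hes7, Cry2, Spry1, Hk2, Aloxe3, Ccne2, Cdkn1c and Dkk1, which did not pass in the main setting, passed with no filter. Among the 104, the largest adjusted p was 0.000547 with no filter and 0.0498 in edgeR's main setting. Passes with no filter are therefore not read as stronger evidence. RLE size factors, limma-voom, rounding down and all 10 libraries stayed within 1.5 times. Leaving out a clone gave 125 to 2045 higher and 0 to 794 lower.

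Against 315 higher and 13 lower in the Clock/Bmal1 clones, lower calls numbered 6 with no replicate block, 22 with DESeq2 and 20 with 10 libraries, no filter gave 628 higher and 59 lower, and the 1 CPM filter 202 higher and 7 lower. Leaving out a clone gave 420 to 2811 higher and 11 to 1482 lower. In the ClockBmal1DN clones, no filter gave 2 higher and 5 lower, and leaving out a clone 1 to 8 higher and 0 to 29 lower.

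The rise of Arntl in the ClockBmal1DN clones was 2.80 with no filter, now past the threshold, and 1.21 to 4.39 with a clone left out. The contrast with ESC, 0 and 0 in the main setting, gave 0 to 23 higher and 0 to 194 lower with a clone left out, and its largest counts came without ESC ClockBmal1DN clone 5. Among genes that did not pass, Cer1 ranged from -1.50 to 0.0877, Runx1 from -0.32 to 1.14 and mt-Nd5 from -0.37 to 0.76 with a clone left out, each changing sign. The cause of these changes was not tested, but a fit of the iPSM libraries without a clone has 1 residual degree of freedom. Counting depth sets the limit for genes with a few reads in a group, and elsewhere the 2 clones per line do.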

Other observations

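Some of the 104 genes belong to none of the gene lists. Those named here were chosen after their values were seen. They are the receptor genes Chrm4, Gipr, Ntrk2 and Fzd4, and Reln, which encodes an extracellular protein that Vldlr binds. Their differences were 4.12 (edgeR adjusted p = 0.00589) for Chrm4, 3.53 (edgeR adjusted p = 0.00621) for Gipr, 4.67 (edgeR adjusted p = 0.00623) for Ntrk2, 2.03 (edgeR adjusted p = 0.0323) for Fzd4 and 1.74 (edgeR adjusted p = 0.0373) for Reln on the log2 scale. Ntrk2 overlaps another tested transcript on the same strand, so its reads cannot be assigned with certainty.

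In 8 of 134 called or named genes (5.97%) the clones were ordered in opposite ways in the 2 cell types, with the log2 dox ratios of both Clock/Bmal1 clones on 1 side of both ClockBmal1DN clones in presomitic mesoderm and on the other side in ESC. Of the 104 called genes 3 were so ordered, and of all transcripts tested 3.53%. The shares are not comparable. All 104 called genes have clones apart in presomitic mesoderm, against 13.8% of all transcripts above and 12.9% below. The difference in presomitic mesoderm minus that in ESC was 10.1 for Gm14169, 3.25 for Shisa3, 1.43 for Syde2, 1.20 for Ccne2, -4.66 for Tbx18, 3.38 for Foxa2, 7.48 for Neurog2 and -1.44 for Kdr on the log2 scale. Every 1 of them had an adjusted p of 1 in edgeR's test of that contrast. In ESC Tbx18 fell from 7.87 CPM untreated to 2.06 CPM with dox in ClockBmal1DN clone 6, and from 2.31 to 1.81 CPM in clone 5. Its ESC value thus rests largely on 1 clone. Several of the 8 values of the contrast rest on few reads. Gm14169 had at most 1.22 CPM in any library, Foxa2 at most 1.84 CPM, Tbx18 at most 0.32 CPM in presomitic mesoderm and Neurog2 at most 0.114 CPM in ESC, with 0 reads in some ESC libraries.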
